A study of Mus musculus with 7 samples.

Results

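The expression of 10 fibroblast state markers was measured by RNA sequencing in EMT6 mouse mammary tumors that were parental or had acquired resistance to PD-L1 inhibition. The markers were chosen by name, as 10 of the 53465 genes in the deposited table, and fall into a myofibroblast class (Acta2, Tagln and Fap), a general fibroblast class (Pdpn and Thy1) and a universal fibroblast class (Dpt, Pi16, Clec3b, Cd34 and Tcf21). All 10 genes were present in the table. The choice was made with the expression values of these tumors already known, so the values of the 10 markers are given as a description, without a test.

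EMT6 cells derive from a mammary carcinoma of the mouse, and all tumors were grown from orthotopic implants in the mammary tissue of Balb/c mice. EMT6-P (parental) tumors came from EMT6 cells in mice given an isotype control antibody, and EMT6-PTR (PD-L1 treatment-resistant) tumors came from the resistant variant, labelled EMT6 PDR, in mice given anti-PD-L1. Both antibodies were dosed at 250 µg per mouse every 3 days until the institutional endpoint, so the cell variant and the antibody differ together and their contributions cannot be told apart. There were 3 EMT6-P libraries, 3 EMT6-PTR libraries and 1 library from a metastasis of the resistant variant. The labels do not say whether replicates came from separate mice, and the study describes its replicates as technical unless stated otherwise, so p-values measure only the spread between these samples. By the study's methods, the resistant variant was derived from primary tumors that resumed growth and the parental control cells from primary tumors of antibody control mice, and how many clones either holds is not given in the sources used here. Each library held between 20430110 and 25213472 estimated counts.

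Fibroblasts in tumors take up distinct states. Myofibroblasts contract and deposit matrix, and they express smooth muscle proteins under the control of TGF-beta and of serum response factor (SRF) with its MRTF coactivators. Universal fibroblasts, which lie around vessels and in the adventitia of most organs, express Pi16 and Dpt and are regarded as a resting reservoir from which activated states arise. None of the markers is restricted to fibroblasts: Pdpn is also made by lymphatic endothelium and by flat alveolar cells, Thy1 by T cells, Cd34 by blood endothelium, and carcinoma cells with mesenchymal features can express several of them. The libraries were made from whole tissue, in which fewer cells of a type and less RNA per cell cannot be told apart, and which cells gave the RNA was not measured.

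EMT6-PTR replicate 3 stood apart from the other primary tumors across the whole table and is given separately throughout. Among the 15645 genes tested, 25.4% lay at least 2-fold from the EMT6-P mean in this library, against 5.48% in EMT6-PTR replicate 1 and 8.88% in replicate 2. The 8 carcinoma epithelial markers, which include the keratins Krt8 and Krt18, summed to 593.9 CPM (counts per 1000000, scaled between libraries by upper quartiles) in EMT6-PTR replicate 3 and between 2092 and 2335 CPM in the other 5 primary tumors. Krt8 alone stood at 505.1 CPM in EMT6-PTR replicate 3, against 1896, 1758 and 1799 CPM in EMT6-P and 1675 and 1724 CPM in the other EMT6-PTR tumors. EMT6-PTR replicate 2 differed in another way, since the transcript CT010467.1 took 13.8% of its counts against 0.433% to 1.35% in the other libraries. Without this tumor the groups did not overlap for Fap, Clec3b and Pdpn. For Fap and Clec3b the same held without EMT6-P replicate 3. The metastasis, in which 26.5% of the tested genes lay at least 2-fold from the EMT6-P mean, is labelled as breast tumor tissue with no site given. It carried lung epithelial genes at a summed 8409 CPM, against 9.83 to 35.4 CPM in the 6 primary tumors. Sftpc and Sftpb, the surfactant proteins that define alveolar type II cells, stood at 2308 and 1140 CPM in the metastasis and at 0.195 CPM or less in every primary tumor. In this library the contributions of tumor and of lung tissue to a value cannot be told apart.

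The start sites of 2 markers that went opposite ways in EMT6-PTR replicate 3 are shown first, because the smooth muscle genes are the best known targets of SRF, which binds a short motif called the CArG box. Promoter windows of 300 bases, from 250 bases before to 50 bases after the RefSeq start (GRCm38.p6), were available for 6 of the 10 markers. They were Acta2, Pdpn, Dpt, Pi16, Cd34 and Tcf21. No strict CArG box was found on either strand in the 6 windows, and 1.63% of all 32851 promoter windows held 1. When 1 of the 6 middle bases was allowed to be G or C, a form chosen after the strict search, the Acta2 window held 2 matches (capitals), CCCTATATGG and CCTTGTTTGG, whose first bases lie 84 and 34 bases before the start. The other 5 windows, Pi16 included, held none. The Pi16 window lies inside the annotated gene, downstream of the gene start at chr17:29317680, and does not cover that start. For Acta2 the window covers the annotated gene start at chr19:34255590. The RefSeq start used lies downstream of it, so both Acta2 matches lie inside the annotated gene. This relaxed form was present in 9.98% of all windows, and 2 or more matches were present in 0.822%. Among 10 windows of the contractile genes listed further below, 1 held a match. Pdpn, Dpt and Cd34, without a match, were lowest among the primary tumors in EMT6-PTR replicate 3, as Acta2 was. The part of the motif in any marker level was not tested. Acta2 lies on the minus strand at chr19:34255324-34255623 and Pi16 on the plus strand at chr17:29318632-29318931, both read 5′ to 3′ along the gene.
Acta2: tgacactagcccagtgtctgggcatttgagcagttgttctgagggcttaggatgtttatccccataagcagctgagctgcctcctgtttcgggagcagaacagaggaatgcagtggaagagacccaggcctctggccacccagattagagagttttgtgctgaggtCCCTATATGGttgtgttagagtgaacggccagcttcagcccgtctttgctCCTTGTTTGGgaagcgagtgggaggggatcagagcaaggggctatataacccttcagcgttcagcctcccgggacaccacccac
Pi16: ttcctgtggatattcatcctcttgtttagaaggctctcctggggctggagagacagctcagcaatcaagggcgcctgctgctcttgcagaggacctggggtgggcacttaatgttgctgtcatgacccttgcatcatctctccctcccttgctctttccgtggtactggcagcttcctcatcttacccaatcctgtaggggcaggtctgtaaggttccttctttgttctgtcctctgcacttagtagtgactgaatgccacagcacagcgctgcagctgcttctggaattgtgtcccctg

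The myofibroblast genes Acta2 and Tagln were about as high in EMT6-PTR replicates 1 and 2 as in EMT6-P and were much lower in EMT6-PTR replicate 3, while Fap went the other way. Acta2 (ENSMUSG00000035783.8, chr19:34241090-34255590, minus strand, GRCm38) encodes smooth muscle alpha-actin, the standard marker of myofibroblasts and also a marker of pericytes and vascular muscle. Its levels were 507.3, 575.6 and 680.8 CPM in EMT6-P, 591.8, 662.4 and 54.13 CPM in EMT6-PTR, and 66.62 CPM in the metastasis. Replicates 1 and 2 of EMT6-PTR lay within the EMT6-P range, and replicate 3 lay 10.9-fold below the EMT6-P mean of 587.9 ± 87.41 CPM (SD, n = 3). The fitted log2 fold change of EMT6-PTR against EMT6-P was -0.43 (SE 0.78) with replicate 3 and 0.09 without it, so its sign rested on that library. Acta2 shares coding sequence with the other muscle actins, and the authors' counting could split reads among them. The skeletal muscle actin Acta1 stood at 1649 CPM in EMT6-PTR replicate 1 and at 7.09 CPM in replicate 2, whereas Acta2 differed little between these libraries.

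Tagln (ENSMUSG00000032085.5, chr9:45929619-45936058, minus strand) encodes transgelin, an actin-binding protein of smooth muscle and myofibroblasts. It was measured at 66.97, 90.66 and 74.09 CPM in EMT6-P, 104.1, 96.48 and 3.906 CPM in EMT6-PTR, and 53.7 CPM in the metastasis. As for Acta2, only replicate 3 of EMT6-PTR was low, at 19.8-fold below the EMT6-P mean of 77.24 ± 12.16 CPM (SD, n = 3), and the other EMT6-PTR tumors lay just above all 3 EMT6-P values. The log2 fold change was -0.18 (SE 0.95) and became 0.38 without replicate 3. Tagln overlaps Pcsk7 on the opposite strand, with a mean of 608.1 estimated counts per library, and the strand setting of the counting is not given in the sources used here, so reads of the pair may not be fully separated.

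Fap (ENSMUSG00000000392.17, chr2:62500943-62574075, minus strand) encodes fibroblast activation protein, a surface protease of activated stromal fibroblasts. Its levels were 3.602, 2.479 and 5.778 CPM in EMT6-P, 7.073, 4.411 and 25.89 CPM in EMT6-PTR, and 4.635 CPM in the metastasis. The groups overlapped through EMT6-PTR replicate 2 and EMT6-P replicate 3. EMT6-PTR replicate 3 was the highest library, 6.55-fold above the EMT6-P mean of 3.953 ± 1.677 CPM (SD, n = 3). The log2 fold change of 1.66 (SE 0.71) fell to 0.54 without replicate 3. The library with the least Acta2 and Tagln thus had the most Fap, although all 3 genes belong to the same class. The metastasis, low in Acta2, lay within the range of the primary tumors for Fap and below EMT6-PTR replicates 1 and 2 for Tagln.

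Of the general markers, Pdpn varied little among primary tumors and Thy1 was lowest in EMT6-PTR replicate 3 and the metastasis. Pdpn (ENSMUSG00000028583.14, chr4:143267431-143299564, minus strand) encodes podoplanin, a mucin-like membrane protein. It was measured at 71.6, 77.47 and 69.72 CPM in EMT6-P, 59.88, 75.15 and 39.33 CPM in EMT6-PTR, and 120.7 CPM in the metastasis. The EMT6-P libraries were within 1.11-fold of each other, the groups overlapped through EMT6-PTR replicate 2, and the log2 fold change was -0.33 (SE 0.24), or -0.11 without replicate 3. The metastasis was 1.56-fold above the highest primary tumor. Ager, a marker of the flat alveolar cells that also make Pdpn, stood at 743.3 CPM in the metastasis and at 26.13 CPM or less in the primary tumors, and its part in the Pdpn level was not tested.

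Thy1 (ENSMUSG00000032011.5, chr9:44043384-44048579, plus strand) encodes CD90, a lipid-anchored surface protein used to sort fibroblasts. It stood at 63.08, 114.2 and 89.68 CPM in EMT6-P, 71.16, 67.17 and 6.679 CPM in EMT6-PTR, and 6.363 CPM in the metastasis. EMT6-PTR replicates 1 and 2 lay in the lower part of the EMT6-P range, and replicate 3 was 13.3-fold below the EMT6-P mean of 88.99 ± 25.57 CPM (SD, n = 3). The metastasis was about as low as EMT6-PTR replicate 3, with 162 against 171 estimated counts, so their order is uncertain. The log2 fold change was -0.88 (SE 0.77) with replicate 3 and -0.36 without it. The 7 T cell markers summed to 6.87 CPM in EMT6-PTR replicate 3, of which Lck gave 5.12 CPM, and to 34.02 CPM in the metastasis, against 5.47 to 9.59 CPM in EMT6-P. Of the 6 that were tested, 3 were at their lowest among primary tumors in EMT6-PTR replicate 3 and 5 were above all primary tumors in the metastasis, and the list's median difference from the EMT6-P mean in EMT6-PTR replicate 3 was -0.67 on the log2 scale. Their part in the Thy1 level was not tested.

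Within the universal class, Pi16 was the marker that separated the groups. Pi16 (ENSMUSG00000024011.16, chr17:29317680-29330593, plus strand) encodes peptidase inhibitor 16, which marks universal fibroblasts across organs. Its levels were 3.261, 3.088 and 4.792 CPM in EMT6-P, 7.637, 19.71 and 44.52 CPM in EMT6-PTR, and 31.07 CPM in the metastasis. Every EMT6-PTR tumor lay above every EMT6-P tumor, which held for 1 of the 10 markers and for 9.47% of all tested genes, and no marker showed the reverse, against 11.8% of all tested genes. With 9.47% of genes behaving in this way, 1 of 10 is near the background. The Pi16 log2 fold change was 2.69 (SE 0.64), remained 1.87 without replicate 3, and lay between 1.87 and 3.11 when any of the 6 primary tumors was left out. Within EMT6-PTR the level still spanned 5.83-fold, with replicate 3 at 12.0-fold above the EMT6-P mean of 3.713 ± 0.938 CPM (SD, n = 3).

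Clec3b (ENSMUSG00000025784.5, chr9:123150946-123157432, plus strand) encodes tetranectin, a secreted plasminogen-binding protein. It was nearly absent from EMT6-P, at 0.146, 0.0936 and 0.47 CPM from 3, 2 and 10 estimated counts. In EMT6-PTR it stood at 2.473, 0.168 and 20.11 CPM, from 57, 3 and 515 estimated counts, and the metastasis reached 82.76 CPM. EMT6-PTR replicate 2 lay inside the EMT6-P range, so the groups overlapped, and replicate 3 was 85.1-fold above an EMT6-P mean that rests on these few counts. The log2 fold change was 4.97 (SE 1.64) and fell to 2.48 without replicate 3.

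Dpt, Cd34 and Tcf21 did not go with Pi16 and Clec3b in EMT6-PTR replicate 3. Dpt (ENSMUSG00000026574.5, chr1:164796644-164824266, plus strand) encodes dermatopontin, a matrix protein that binds collagen and decorin. Its levels were 2.823, 2.994 and 4.463 CPM in EMT6-P, 6.161, 4.746 and 1.406 CPM in EMT6-PTR, and 16.18 CPM in the metastasis. Replicates 1 and 2 of EMT6-PTR were above all EMT6-P values and replicate 3 was below them, giving a log2 fold change of 0.26 (SE 0.55) that was 0.67 without replicate 3 and -0.17 without replicate 1.

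Cd34 (ENSMUSG00000016494.9, chr1:194938819-194961279, plus strand) encodes a sialomucin of fibroblasts, blood progenitors and endothelium. It was measured at 30.52, 21.24 and 37.4 CPM in EMT6-P, 39.53, 24.9 and 16.4 CPM in EMT6-PTR, and 127.8 CPM in the metastasis. The primary groups overlapped, with a log2 fold change of -0.14 (SE 0.36) that was 0.12 without replicate 3, and the metastasis was 3.23-fold above the highest primary tumor. The 10 blood endothelial markers summed to 1335 CPM in the metastasis and to 179.7 to 238.3 CPM in the primary tumors, and their part in the Cd34 level was not tested.

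Tcf21 (ENSMUSG00000045680.8, chr10:22817281-22820174, minus strand) encodes a transcription factor of lung, kidney and heart fibroblasts. It had 0 counts in all 6 primary tumors, where 3 counts would correspond to 0.117 to 0.168 CPM, and 234 estimated counts, or 9.192 CPM, in the metastasis. The metastasis was therefore at least 54.9-fold higher than any primary tumor, with the floor of 3 counts taken per library and covering counting error only. Tcf21 was the marker that did not pass the filter on low counts, which 9 of the 10 markers passed.

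**Figure D1:**
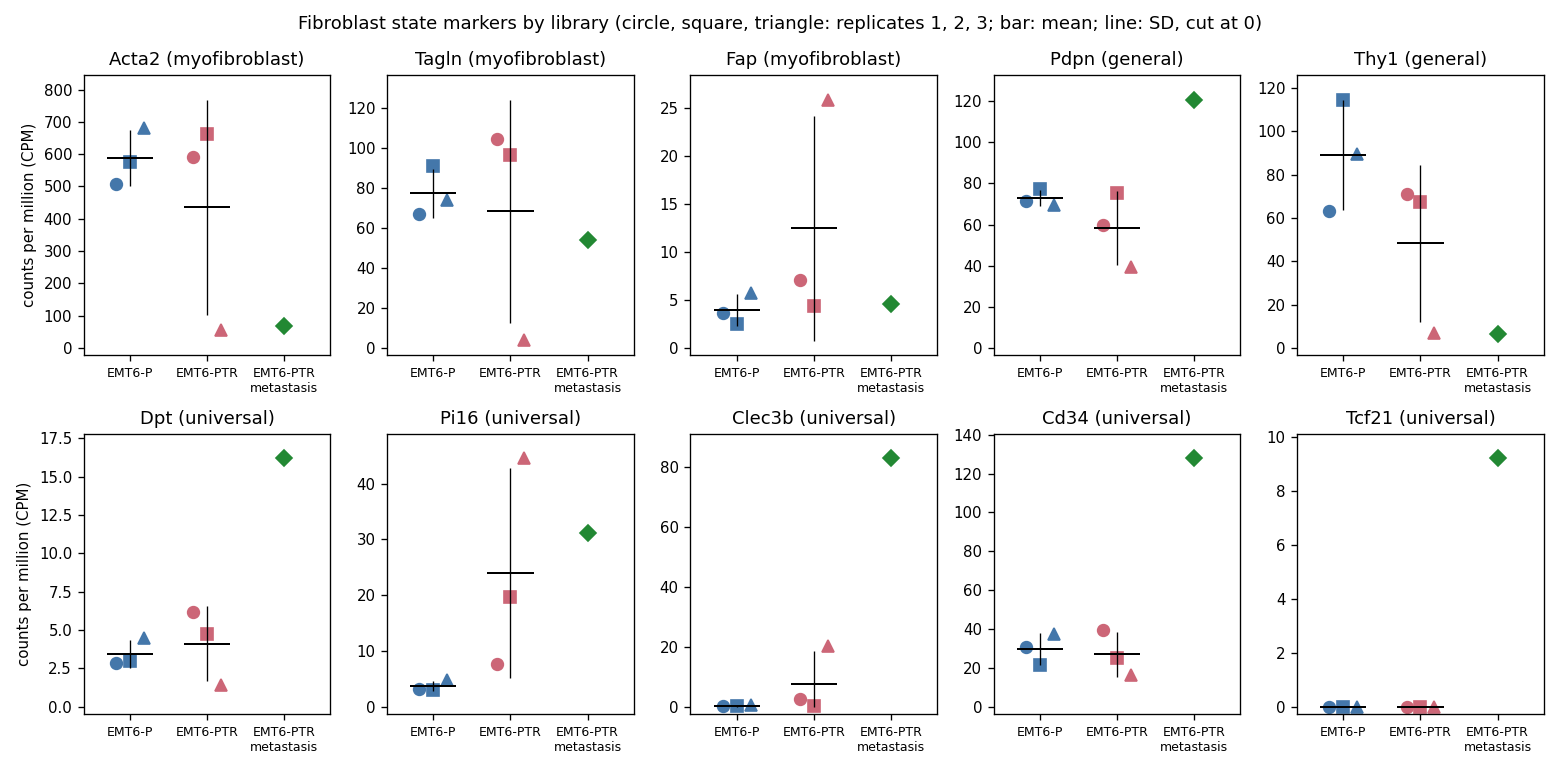
Level of each marker in CPM (vertical axis, linear, a separate scale per gene) in EMT6-P, EMT6-PTR and the EMT6-PTR metastasis, with a point for each library, a bar at the mean of 3 and a line of 1 SD. EMT6-PTR replicate 3 (triangle) is far below the other EMT6-PTR tumors for Acta2, Tagln and Thy1 and far above them for Fap and Clec3b, and the metastasis (diamond) is the highest library for 5 markers.

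Compared per kb of the longest coding transcript, Acta2 was the most abundant marker in EMT6-P at 289 ± 43 CPM per kb (SD, n = 3). Thy1 at 51.3 ± 14.7, Tagln at 48.4 ± 7.62 and Pdpn at 40.1 ± 2.23 CPM per kb followed, and their order is uncertain because their levels overlapped within the SD. Cd34 stood at 11.6 ± 3.17 CPM per kb. Dpt at 1.99 ± 0.523, Fap at 1.44 ± 0.61, Pi16 at 0.93 ± 0.235 and Clec3b at 0.238 ± 0.205 CPM per kb were the lowest detected markers. The order changed in EMT6-PTR replicate 3, where Acta2 at 26.6, Pdpn at 21.6 and Clec3b at 20.3 CPM per kb led, Pi16 at 11.1 and Fap at 9.41 CPM per kb were in the middle, and Tagln was at 2.45 CPM per kb. In the metastasis Clec3b was the highest marker at 83.4 CPM per kb, above Pdpn at 66.5 and Cd34 at 50 CPM per kb.

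Read across the 10 markers, the spread within EMT6-PTR exceeded the spread within EMT6-P for 9 genes on the log2 scale, with Tcf21 at 0 throughout. A wider spread was not particular to the markers. The common dispersion, a measure of replicate spread shared by all genes, reached 0.2465 among EMT6-PTR tumors, against 0.0266 among EMT6-P tumors. The share of tested genes with a wider spread among EMT6-PTR tumors was not counted. EMT6-PTR replicate 3 was the lowest of the 6 primary tumors for 6 markers (Acta2, Tagln, Pdpn, Thy1, Dpt and Cd34) and the highest for 3 (Fap, Pi16 and Clec3b). Across all tested genes this library was the lowest for 34.5% and the highest for 32.8%, so most genes, not the markers alone, had an extreme value there. Without replicate 3, every remaining EMT6-PTR value lay above every EMT6-P value for Tagln, Dpt and Pi16, which is 3 of 10 markers against 18.1% of tested genes. The metastasis lay above all 6 primary tumors for 5 markers (Pdpn, Dpt, Clec3b, Cd34 and Tcf21) and below all of them for 1 (Thy1), against 20% and 25.5% of tested genes. Tcf21, which is counted in these shares of 10 markers, is not among the tested genes. For Thy1 the margin was narrow, at 6.363 CPM against 6.679 CPM in EMT6-PTR replicate 3. Of the 5 universal markers, 4 were highest in the metastasis. Its library has no replicate.

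**Figure D2:**
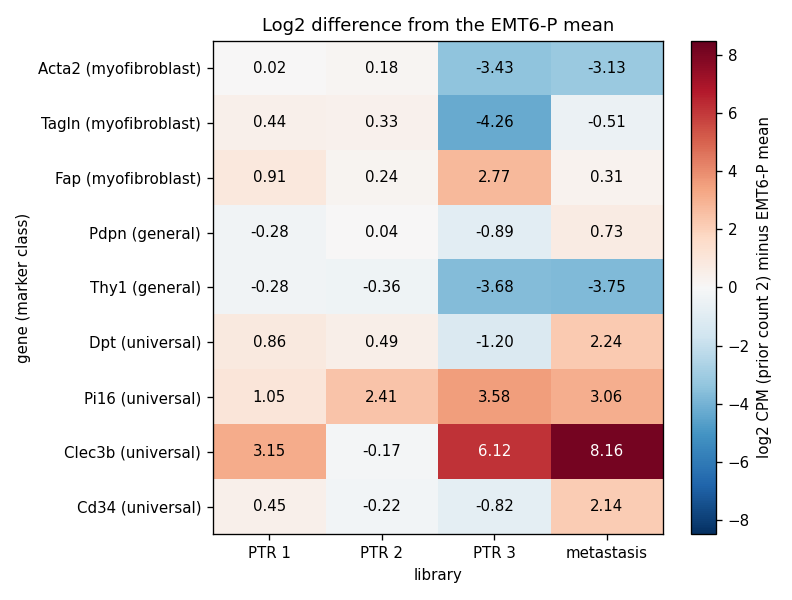
Log2 difference of each marker (rows) from the EMT6-P mean in the 3 EMT6-PTR tumors and the metastasis (columns), on log2 CPM with a prior count of 2. EMT6-PTR replicate 3 and the metastasis both show low Acta2 (-3.43 and -3.13) and Thy1 (-3.68 and -3.75) and high Pi16 and Clec3b, while Tagln differs between them (-4.26 and -0.51). Tcf21 is left out because its value depends on the prior count.

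The question of whether resistant tumors differed from parental tumors beyond the spread of the replicates was tested for all genes by the quasi-likelihood method of edgeR, with p adjusted after Benjamini-Hochberg. Of the 15645 genes tested, 0 (0%) passed an adjusted p of 0.05, with a smallest adjusted p of 0.421 and 1786 genes at an unadjusted p under 0.05. By limma-voom 0 genes passed as well, and by DESeq2 281 genes passed, 138 higher and 143 lower in EMT6-PTR. The values below are therefore described without calling any gene changed.

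Around the markers, 6 lists of fibroblast genes were measured, 100 genes in all without the markers themselves, of which 99 were tested and 0 passed the edgeR test. Their median log2 fold change was 0.21, with 61 genes above 0 and 38 below, against a median of 0.03 over all tested genes, and 16 of the 99 had an unadjusted p under 0.05. Every EMT6-PTR value lay above every EMT6-P value for 9 of the 99 genes (9.09%) and below for 3 (3.03%), against 9.47% and 11.8% of all tested genes. The fibroblast core list (collagens, proteoglycans and Pdgfra) had 16 of 19 genes above 0 and a median of 0.57, which was 0.24 without EMT6-PTR replicate 3. Its 3 genes of smallest p were Serpinf1, Dcn and Col3a1. Col3a1, a fibrillar collagen, stood at 812.3, 734.9 and 1160 CPM in EMT6-P and 945.4, 2003 and 9084 CPM in EMT6-PTR, with a log2 fold change of 2.15 (SE 0.81, adjusted p = 0.431 by edgeR) that was 0.70 without replicate 3. Dcn, the collagen-binding proteoglycan decorin, stood at 32.17, 49.12 and 54.97 CPM in EMT6-P and 35.84, 104.5 and 3344 CPM in EMT6-PTR, so that the difference lay largely in replicate 3. Serpinf1, the secreted factor PEDF, separated the groups, with 203.1 to 317.5 CPM in EMT6-P and 373.1 to 838.9 CPM in EMT6-PTR (log2 fold change 1.02, SE 0.36, adjusted p = 0.427 by edgeR).

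EMT6-PTR replicate 3, low in Acta2, was mixed in its fibroblast core genes. It was the highest primary tumor for 11 and the lowest for 6 of the 19, against 32.8% and 34.5% of all tested genes. Col6a1 was at 1594 CPM there against 469.5 to 798.9 CPM in the other 5 primary tumors, whereas Col5a1 was at 314.9 CPM against 353.9 to 496 CPM. Pdgfra, a receptor that marks fibroblasts, stood at 344.9 CPM there and at 31.15 to 61.81 CPM in the other 5 primary tumors. All genes named in this paragraph were chosen after their values were seen. The matrix protein Postn stood at 5712 CPM in this tumor against 437.5 to 1000 CPM in the others. Lrrc15, a marker of TGF-beta-driven myofibroblasts, was at 10.74 CPM against 77.58 to 142 CPM, and Tnc, the matrix protein tenascin C, at 73.27 CPM against 671 to 1225 CPM. The activated matrix list was thus mixed in this library, which was the highest primary tumor for 6 and the lowest for 9 of its 18 genes.

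The contractile list had a median log2 fold change of 0.28, with 9 of 12 genes above 0, and 0.53 without EMT6-PTR replicate 3. In that library 7 of the 12 genes were at their lowest, and the list's median difference from the EMT6-P mean was -0.60 on the log2 scale, against 0.64 in EMT6-PTR replicate 1 and 0.36 in replicate 2. Mylk, the kinase that phosphorylates myosin light chain, went the other way from Acta2, at 25.55, 26.43 and 24.19 CPM in EMT6-P and 27.38, 39.64 and 50.89 CPM in EMT6-PTR (log2 fold change 0.63, SE 0.23, adjusted p = 0.427 by edgeR). Synpo2, an actin-bundling protein of muscle, stood at 51.5 CPM in EMT6-PTR replicate 1 and at 1.45 to 3.79 CPM in the other 5 primary tumors. Lmod1, an actin nucleator of smooth muscle, was at 3.83 CPM or less in all 6. Skeletal muscle markers moved with some of these genes, since their 8 genes summed to 4290 CPM in EMT6-PTR replicate 1, 669.2, 14.13 and 385.5 CPM in EMT6-P, and 9.16 and 6.25 CPM in EMT6-PTR replicates 2 and 3. Ckm, the muscle creatine kinase, was at 465.6 CPM in EMT6-PTR replicate 1 and at 0 in replicate 3. The part of muscle tissue in the contractile values was not tested.

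The activated matrix list had a median log2 fold change of 0.03 with 10 of 18 genes above 0. Lox, which crosslinks collagen, stood at 137.7, 144.3 and 141.3 CPM in EMT6-P and 216.9, 409.1 and 451.9 CPM in EMT6-PTR, with a log2 fold change of 1.35 (SE 0.28, adjusted p = 0.421 by edgeR) that was 1.15 without replicate 3. Ccn2, a matrix-associated target of TGF-beta and YAP, stood at 261.6 to 290.3 CPM in EMT6-P and 330.3, 674.9 and 2809 CPM in EMT6-PTR. Col11a1, a minor fibrillar collagen, was at 6.571, 12.16 and 32.37 CPM in EMT6-P and 20.44, 196.3 and 764.8 CPM in EMT6-PTR. Lox and Ccn2 did not overlap between the groups, as Pi16 did not, and Col11a1 did. By DESeq2, Lox (adjusted p = 0.00266), Col11a1 (0.0491), Adamts5 (0.0287) and Has1 (0.0279) were the 4 of 99 fibroblast genes that passed, all higher in EMT6-PTR, against 0.882% of all tested genes called higher and 1.8% called in either direction by DESeq2. Has1 stood at 1.168, 0.0936 and 0.564 CPM in EMT6-P and 2.864, 26.58 and 1.133 CPM in EMT6-PTR. Its groups overlapped, and its difference lay largely in EMT6-PTR replicate 2.

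The universal and adventitial list, whose genes accompany Pi16 and Dpt in other tissues, had a median log2 fold change of 0.15 with 10 of 19 genes above 0, so about as many genes lay on the side of Pi16 as on the other. Adamts5, a matrix protease, had its highest values in the same tumors as Pi16, at 19.76, 17.12 and 26.64 CPM in EMT6-P and 26.16, 74.76 and 214.2 CPM in EMT6-PTR (log2 fold change 2.31, SE 0.72, adjusted p = 0.421 by edgeR). Pcolce2, an enhancer of procollagen processing, was the reverse, at 25.79 to 32.14 CPM in EMT6-P and 8.09 to 19.92 CPM in EMT6-PTR (log2 fold change -1.07, SE 0.33, adjusted p = 0.421 by edgeR). Efemp1, an elastic fibre protein, had 1, 2 and 1 estimated counts in EMT6-P and 20, 12 and 12 in EMT6-PTR, and 11.71 CPM in the metastasis. Its log2 fold change of 3.29 (SE 0.53, adjusted p = 0.421 by edgeR) rests on these few counts. It was the 1 gene of the 19 that was higher in every EMT6-PTR tumor, against 9.47% of all tested genes. In the metastasis 8 of the 19 genes lay above all primary tumors, and the list's median difference from the EMT6-P mean was 1.54 on the log2 scale, the direction also taken by Dpt, Pi16, Clec3b and Cd34.

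The inflammatory fibroblast list set EMT6-PTR replicate 3 and the metastasis furthest apart, although both were low in Acta2 and Thy1. EMT6-PTR replicate 3 was the lowest primary tumor for 11 of its 15 genes, with a median difference from the EMT6-P mean of -2.02 on the log2 scale, whereas the metastasis was above all primary tumors for 11 of 15, with a median difference of 2.03. Ccl2, a monocyte chemokine, stood at 87.66, 55.3 and 33.4 CPM in EMT6-P, 33.67, 44.78 and 7.85 CPM in EMT6-PTR and 223.4 CPM in the metastasis. Saa3, an acute phase protein, was at 5.40 to 11.18 CPM in EMT6-P, 5.077, 33.22 and 24.68 CPM in EMT6-PTR and 329.1 CPM in the metastasis. Il1r1, the receptor for interleukin 1, was at 38.45 to 46.32 CPM in EMT6-P and 44.78, 54.16 and 82.21 CPM in EMT6-PTR. The list's median log2 fold change between primary groups was -0.05, and 0.33 without replicate 3.

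The last list held the factors that control the contractile program. These TGF-beta and SRF regulators had a median log2 fold change of 0.18, with 10 of 16 tested genes above 0. Tgfb3, a TGF-beta ligand, was at 59.77 to 86.02 CPM in EMT6-P and 90.06 to 118.1 CPM in EMT6-PTR, Mrtfb, an SRF coactivator, at 33.68 to 37.63 and 41.65 to 45.07 CPM, and Tead1, the DNA-binding partner of YAP, at 119.3 to 135.3 and 148.2 to 184 CPM. The groups did not overlap for these 3 genes, 3 of 16 tested against 9.47% of all tested genes, with log2 fold changes of 0.51 (SE 0.19), 0.29 (SE 0.12) and 0.34 (SE 0.14) and adjusted p from 0.427 to 0.437 by edgeR. Srf itself, whose product binds the CArG box, stood at 30.89 CPM in EMT6-PTR replicate 3, where Acta2 was lowest, and at 78.65 to 97.4 CPM in the other 5 primary tumors. In the metastasis Srf was at 72.59 CPM and Acta2 at 66.62 CPM. Srf was chosen after its values were seen, and its part in the Acta2 level was not tested.

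**Figure D3:**
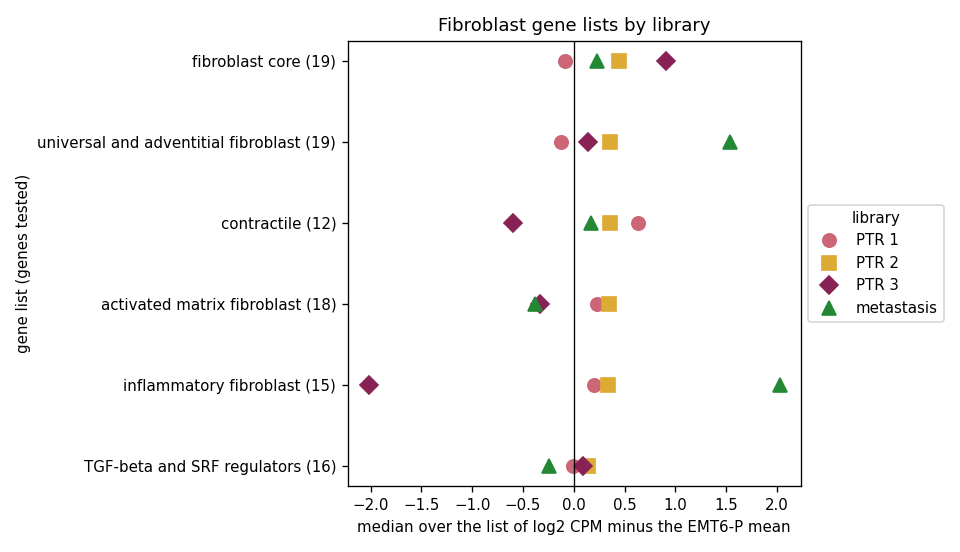
Median over each fibroblast gene list (rows, with the number of genes tested) of log2 CPM minus the EMT6-P mean (horizontal axis), with a symbol for each EMT6-PTR tumor and the metastasis. The inflammatory list is at -2.02 in EMT6-PTR replicate 3 and 2.03 in the metastasis, and EMT6-PTR replicates 1 and 2 stay between -0.13 and 0.64 for all 6 lists.

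Markers of other cell types showed which tissues the libraries could hold. Pericyte markers, a source of Acta2, summed to 122.6, 150.1 and 155.8 CPM in EMT6-P, 223.4, 212.8 and 150.9 CPM in EMT6-PTR and 304.9 CPM in the metastasis. Mcam alone gave 201.5 CPM of the sum in the metastasis. In that library 3 of the 8 genes lay above all 6 primary tumors and 2 lay below all of them. Rgs5 was at 15.55 CPM and Cspg4 at 18.93 CPM in the metastasis. Of the 8 genes, 6 were at their lowest among primary tumors in EMT6-PTR replicate 3, where Acta2 was also lowest, and the list's median difference from the EMT6-P mean there was -0.65 on the log2 scale. Rgs5 and Cspg4, which mark pericytes, were among these, at 6.68 CPM against 17.62 to 48.99 CPM for Rgs5 and at 19.18 CPM against 29.49 to 60.91 CPM for Cspg4. The sum in this tumor was held up by Ndufa4l2 at 44.02 CPM and Notch3 at 38.35 CPM, and the part of pericytes in the Acta2 level was not tested. Keratinocyte genes summed to 50.07 CPM in EMT6-PTR replicate 3, against 220.7 to 603.9 CPM in the other primary tumors, led by Krt14 at 19.02 against 189.7 to 521.5 CPM, with Krt5 at 0.73 to 26.82 CPM. Trp63, another keratinocyte gene, was at 29.37 CPM in this tumor, inside the range of the others, and Epcam of the carcinoma list was at 8.83 CPM, also inside. Cdh1 of the carcinoma list was lower there, at 3.398 CPM against 5.988 to 9.715 CPM. Of the 6 carcinoma list genes tested, 3 were at their lowest in this tumor, and the list's median difference from the EMT6-P mean was -0.949 on the log2 scale. In CPM the low sums rested largely on the abundant keratins. Mesothelial genes summed to 489.4 CPM in EMT6-PTR replicate 3 and 558.8 CPM in the metastasis, against 152.7 to 221.6 CPM in the others. Msln, which carcinoma cells also express, made up 372 CPM of the former, and Upk3b, a more specific mesothelial gene, was at 0 there and at 31.46 CPM in the metastasis. Tendon and cartilage genes summed to 354.6 CPM in EMT6-PTR replicate 3 and 99.29 to 134.3 CPM in the other primary tumors, although the tendon factor Scx was lower there, at 11.4 CPM, and Tnmd was at 0. Fmod of this list gave 255.8 CPM of the sum in EMT6-PTR replicate 3, and stood at 3.415 to 20.49 CPM in the other primary tumors.

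Most vascular markers were highest in the metastasis. Of the 10 blood endothelial genes, 9 were above all primary tumors there. Emcn was below all of them, at 8.367 CPM against 15.75 to 21.94 CPM. Pecam1 and Cdh5, which mark endothelium, were at 37.85 to 60.53 and 25.93 to 49.42 CPM in the primary tumors and at 279.9 and 256.1 CPM in the metastasis. Lymphatic genes summed to 13.09 to 19.44 CPM and to 180.7 CPM in the metastasis, where Lyve1 reached 152.7 CPM while Prox1, the defining factor, was at 0.236 CPM. Of immune cells, only T cell and mast cell markers were listed, and both were low in the primary tumors. T cell genes summed to 20.04 CPM in EMT6-PTR replicate 2, with Cd3e at 2.29 and Cd3d at 1.79 CPM, and to 5.47 to 9.59 CPM in the other primary tumors. Mast cell genes stayed at 3.48 to 8.93 CPM, with Kit at 3.05 to 7.54 and Cpa3 at 0.391 CPM or less. Adipocyte genes summed to 27.55, 18.15 and 31.71 CPM in EMT6-P and 54.5, 37.35 and 53.7 CPM in EMT6-PTR, so that this sum, like Pi16, was higher in every EMT6-PTR tumor. Fabp4, a fatty acid carrier that endothelium also makes, at 9.68 to 18.56 and 19.37 to 29.9 CPM, and Plin4, a lipid droplet protein, at 1.03 to 3.36 and 6.70 to 18.79 CPM, were higher in every EMT6-PTR tumor as well, while Adipoq and Plin1, which define adipocytes, were at 1.62 and 0.282 CPM or less. The part of any of these cell types in the marker levels was not tested.

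**Figure D4:**
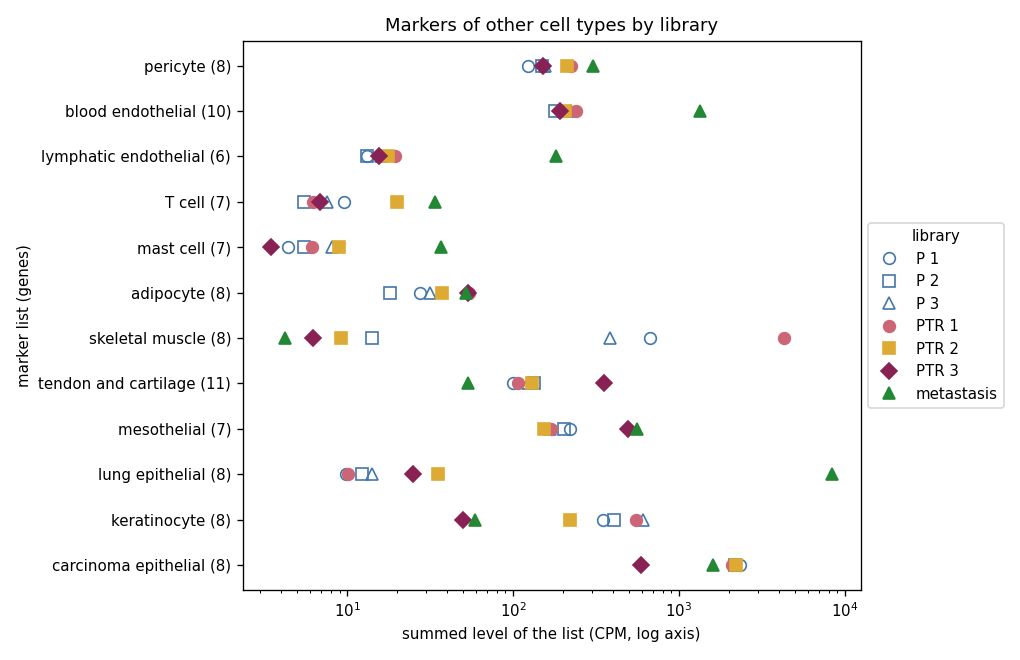
Summed level of the marker genes of 12 other cell types (rows, with the number of genes) in each library, on a log axis of CPM. The metastasis stands apart for lung epithelial genes at 8409 CPM, EMT6-PTR replicate 1 for skeletal muscle genes at 4290 CPM and EMT6-PTR replicate 3 for low carcinoma epithelial genes at 593.9 CPM.

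Genes whose pattern over the 7 libraries was most like each class were ranked by Pearson's r with the mean of the class on standardized log2 CPM, among 12950 genes. For the myofibroblast class they were Kbtbd8 (r = 0.983), Dleu2 (0.978), Cbl (0.977), Fbxl14 (0.974) and Bend3 (0.970). For the general class they were Hspa5 (0.984), Ubl4a (0.977), Uap1 (0.977), Ptk2b (0.974) and Hbegf (0.974), the last at 118.2 to 132.2 CPM in 5 primary tumors and 8.67 CPM in EMT6-PTR replicate 3. For the universal class they were Nhsl2 (0.996), Brpf3 (0.994), Casz1 (0.993), Shank3 (0.991) and the endothelial receptor Tie1 (0.989), which stood at 12.4 to 19.72 CPM in the primary tumors and 49.77 CPM in the metastasis. As many as 431, 202 and 338 genes had an r above 0.9 for the 3 classes in turn, and the points share EMT6-PTR replicate 3 and the metastasis, which lie far from the others. The members of a class did not all go together, so a class mean need not follow each member. Over the 7 libraries Fap had an r of -0.869 with Tagln and -0.615 with Acta2, which had 0.781 with each other. Pdpn and Thy1 had an r of 0.036, and pairs of universal markers ranged from 0.141 (Dpt and Pi16) to 0.932 (Cd34 and Dpt). All these values describe the 7 libraries and carry no test.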

How the data were processed

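Whole tumors were profiled by stranded poly(A) RNA sequencing. The deposited table holds RSEM estimated counts per gene, and the authors' processing notes name FastQC 0.11.5, STAR 2.6.0a, RSEM 1.3.1 and GRCm38. Estimated counts were rounded to whole numbers. Of 53465 identifiers, 53274 matched a symbol, without version suffixes, and gene positions came from GENCODE (GRCm38). CPM values were scaled by upper quartiles over all 7 libraries, with a prior count of 2 for log2 values, and fold changes came from the 6 primary tumors.

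EMT6-PTR was compared with EMT6-P by edgeR 4.0.16 (R 4.3.3) with its expression filter, upper-quartile scaling and the quasi-likelihood test, at a Benjamini-Hochberg adjusted p of 0.05. The metastasis has 1 library and was not tested. DESeq2 1.42.0, limma-voom 3.58.1, TMM scaling, other filters, a replicate block and leaving out each library were alternatives.

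The markers and gene lists were chosen with earlier results of these data known. The text names all 10 markers, the 3 genes of smallest p in each fibroblast list, the first 2 genes of each of 12 other cell type lists and the 5 genes most like each class (mean log2 CPM of at least 1). A list for 1 further cell type is not reported here. Genes outside this rule were chosen after their values were seen: Pdgfra, Postn, Lrrc15, Tnc, Col6a1, Col5a1, Srf, Ager, Has1, Lck, Ndufa4l2, Notch3, Mcam, Emcn, Trp63, Epcam, Cdh1, Fmod, Fabp4 and Plin4.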

Additional observations from a re-analysis of the deposited data

How the results depend on the processing

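With 3 libraries a group and EMT6-PTR replicate 3 far from the others, these data limit what a test can show. The edgeR count of 0 genes called, for all genes and for the fibroblast lists, also came from limma-voom, TMM scaling, other filters, the metastasis as an additional group and leaving out each primary tumor (0 to 0). DESeq2 called 281 genes, 4 of them in the fibroblast lists, and the cause was not tested. Genes at an unadjusted p under 0.05 numbered 1786, and 3234 without EMT6-PTR replicate 3.

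The labels give both groups the replicate numbers 1 to 3 and do not say that the numbers pair samples. Deviations of same-numbered samples correlated at 0.20, 0.20 and 0.03. Differently numbered samples were not compared, so these values cannot show whether the numbers mark a pairing. The fit with a replicate block called 0 genes, in all and in the fibroblast lists, with 1268 at an unadjusted p under 0.05.

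The number of markers with every EMT6-PTR value above every EMT6-P value, 1 in all libraries, ranged from 1 to 3 when each primary tumor was left out, an alternative chosen after seeing the data. It was 3 without EMT6-P replicate 3 or EMT6-PTR replicate 2 (Fap, Pi16 and Clec3b), against 13.1% and 14.1% of tested genes, and 3 without EMT6-PTR replicate 3 (Tagln, Dpt and Pi16), against 18.1%. The number below ranged from 0 to 1, with Thy1 without EMT6-P replicate 1 (13.8% of tested genes) and Pdpn without EMT6-PTR replicate 2 (15.8%). Of 116 marker fold changes under the alternatives, 114 moved by less than 1 SD between replicates and 6 took the other sign (Acta2 and Tagln without EMT6-PTR replicate 3, Cd34 without EMT6-P replicate 3 or EMT6-PTR replicate 3, and Dpt without EMT6-PTR replicate 1 or by limma-voom). Fap and Clec3b moved further, to 0.54 and 2.48 without EMT6-PTR replicate 3. For the metastasis against the EMT6-PTR mean, 1 of 45 differences took the other sign, that of Tagln, at 0.65 on the log2 scale and -0.90 without EMT6-PTR replicate 3.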
